A study of Ovis aries with 6 samples.

Results

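ATP-binding cassette (ABC) transporters of the choroid plexus are described here in ewes under short or long days and in ewes without a thyroid. The members were the genes whose symbol consists of ABC, a subfamily letter from A to G and a number, with a mean of at least 0.5 CPM (counts per 1e+06 counts of the pool) over all pools. Of 40 rows with such a symbol, 32 met this floor, out of 33609 rows in the table. All 32 were among the 18019 genes with enough counts to be tested. Just inside the floor were ABCG8 and ABCB11 at means of 0.635 and 0.931 CPM, and just outside it were ABCC8 and ABCB4 at 0.459 and 0.398 CPM.

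The choroid plexus, the tissue that secretes cerebrospinal fluid and separates it from blood, was collected from sheep (Ovis aries) in 3 groups. Control ewes were kept in short days (Short) or in long days (Long), and the remaining group was thyroidectomised, that is, had the thyroid removed, and was kept in long days (THX). THX against Long pools thus differ by the operation, Long against Short pools by day length, and THX against Short pools by both. The design text gives 8 ewes in the Short and Long groups and 7 in the THX group. RNA from 3 to 4 ewes was mixed in equal amounts into each pool, with 2 pools per group, and polyA RNA was sequenced. Age and breed were not stated, and thyroidectomised ewes in short days were not analysed here.

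ABC proteins share a domain that binds and hydrolyses ATP. In most subfamilies this domain drives lipids, drugs, conjugated metabolites, peptides or other cargo across a membrane. At the blood-cerebrospinal fluid barrier, exporters of the C subfamily on the blood-facing side of the epithelium are known for clearing organic anions from the fluid, while ABCB1 and ABCG2 are best known as drug exporters of brain capillaries. The E and F subfamilies have no membrane-spanning part and act on ribosomes and translation.

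Totals ran from 48282883 to 82100653 counts per pool, and the 32 members together held 80044 to 142439 of them. The lowest count of a member in a pool was 30. Of 10 listed epithelial markers 9 were in the table with a summed level of 90378 to 144048 CPM, and none was at 0 in all pools. Each pool mixes several cell types, and in such samples fewer cells of a type and less RNA per cell cannot be told apart. Levels below are CPM scaled by TMM factors, which correct for differences in RNA composition. Because no transcript lengths were at hand, levels of different genes are not ranked against each other. All p-values rest on the variation from pool to pool, and the variation from ewe to ewe within a pool was not measured.

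No member passed the test of edgeR in any of the 3 comparisons (adjusted p of at least 0.05 after Benjamini-Hochberg adjustment over all 18019 genes). In THX against Long pools 0 of 32 members passed, beside 0.283% of all tested genes. In Long against Short pools 0 of 32 passed, beside 0% of all genes, and in THX against Short pools 0 of 32, beside 0.916%. At an unadjusted p under 0.05 the counts of members were 4, 1 and 5, beside 9.08%, 13.8% and 22.6% of all genes. DESeq2 called 3, 0 and 3 members, beside 2.49%, 0.882% and 9.77% of all genes, and limma-voom called 0 in each, beside 0.25%, 0% and 0.977%. The members called by DESeq2 were ABCC5, ABCA10 and ABCC3 in THX against Long pools, and ABCC5, ABCA10 and ABCA2 in THX against Short pools. The 3 comparisons share pools and are therefore not independent of each other.

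**Figure D1:**
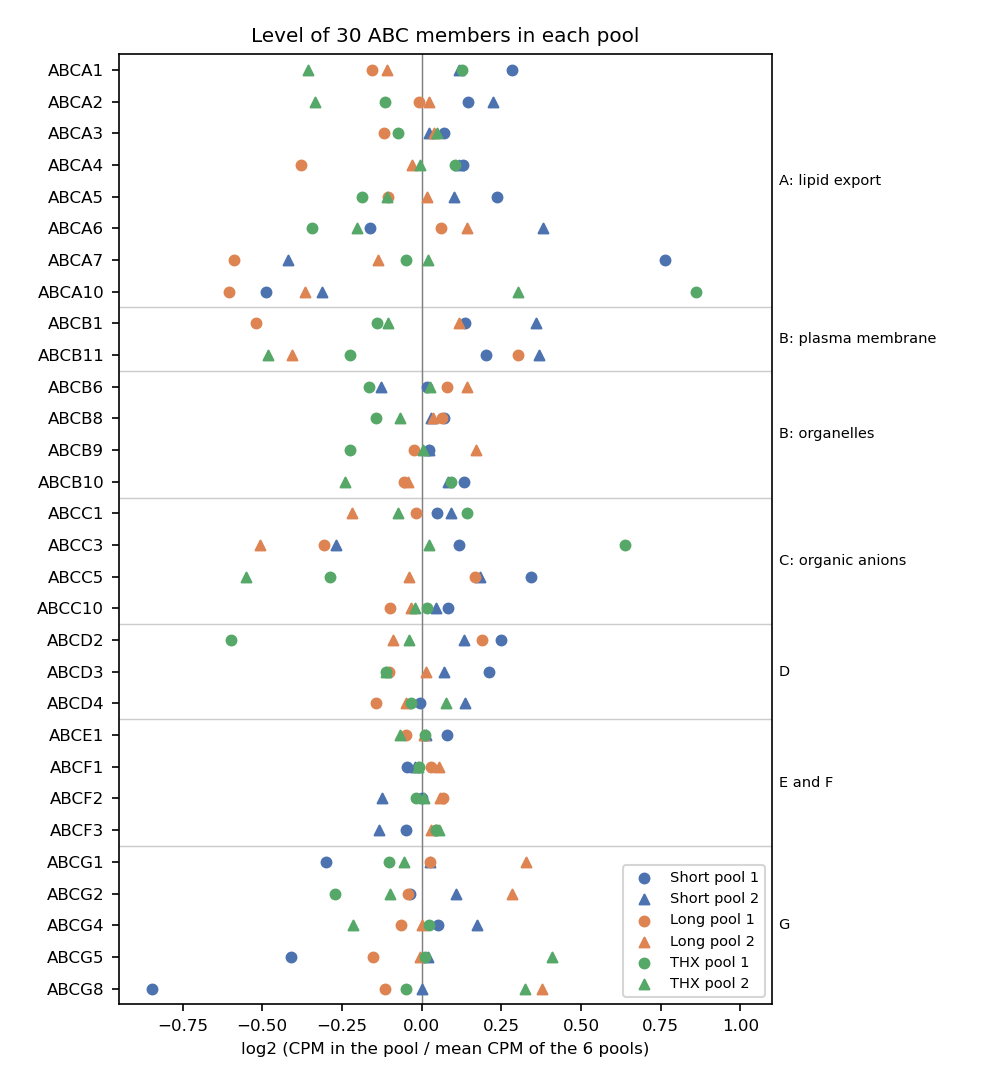
Level of 30 of the 32 members in each of the 6 pools, as log2 of the CPM over the mean CPM of the 6 pools, ordered by subfamily (colour: group, circle: pool 1, triangle: pool 2). ABCA10 stood at 5.12 and 3.48 CPM in the THX pools against 1.86 to 2.27 CPM in the other 4, and both THX pools of ABCC5 lay below the other 4, whereas the E and F members stayed close to 0.

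The organic anion exporters of the C subfamily held the member with the lowest p in THX against Short pools. ABCC5, an exporter of cyclic nucleotides and other organic anions, stood at 247 and 222 CPM in the Short pools, 219 and 190 CPM in the Long pools and 160 and 133 CPM in the THX pools. No group overlapped another, and the order of the group means was Short, Long, THX. The mean was 204 ± 20.8 CPM in Long and 146 ± 18.9 CPM in THX pools (SD, n = 2 each), a 1.40-fold lower level in THX (log2 difference −0.48, SE 0.119, 95% interval −0.76 to −0.20) that did not pass edgeR (adjusted p = 0.247). Against the Short mean of 234 ± 18.0 CPM the THX level was 1.60-fold lower (log2 difference −0.68, SE 0.119, 95% interval −0.96 to −0.40, edgeR adjusted p = 0.0573). DESeq2 called ABCC5 in both comparisons (adjusted p = 0.0144 and 1.89e-05). Long against Short pools gave a log2 difference of −0.20 with a 95% interval of −0.48 to 0.083. Without THX pool 1 ABCC5 passed edgeR in THX against Short pools (log2 difference −0.81, adjusted p = 0.0363), and without THX pool 2 it did not (−0.55, adjusted p = 0.143). Without Short pool 1 the difference was −0.60 (adjusted p = 0.257).

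ABCC3, a related exporter known for moving glucuronide conjugates out of liver cells into blood, went the other way in THX pools. Its level was 43.6 and 28.5 CPM in THX, 22.7 and 19.7 CPM in Long and 30.4 and 23.2 CPM in Short pools. Both THX pools lay above both Long pools, but THX pool 2 lay within the range of the Short pools. The THX mean of 36.0 ± 10.7 CPM (SD, n = 2) was 1.70-fold the Long mean of 21.2 CPM (log2 difference 0.77, SE 0.218, 95% interval 0.25 to 1.28, edgeR adjusted p = 0.32, DESeq2 adjusted p = 0.0247). THX pool 1 carried much of this difference, since without it the log2 difference was 0.43 (adjusted p = 0.453) and without THX pool 2 it was 1.04 (adjusted p = 0.107).

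ABCC1, an exporter of glutathione conjugates long known from the choroid plexus epithelium, differed little. Its pools stood at 26.4 and 27.2 CPM (Short), 25.2 and 21.95 CPM (Long) and 28.2 and 24.3 CPM (THX). The groups overlapped between THX and both other groups, and the log2 difference of THX from Long pools was 0.15 (95% interval −0.12 to 0.42, adjusted p = 0.821). ABCC10, another exporter of conjugates and drugs, had log2 differences of 0.064 (THX against Long pools), −0.13 (Long against Short pools) and −0.065 (THX against Short pools). All 4 C members were below 0 in Long against Short pools, and all 4 had groups that did not overlap there, with log2 differences from −0.34 to −0.13 and adjusted p of at least 0.44. Of all tested genes 50.3% were below 0 and 53.5% did not overlap in that comparison.

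**Figure D2:**
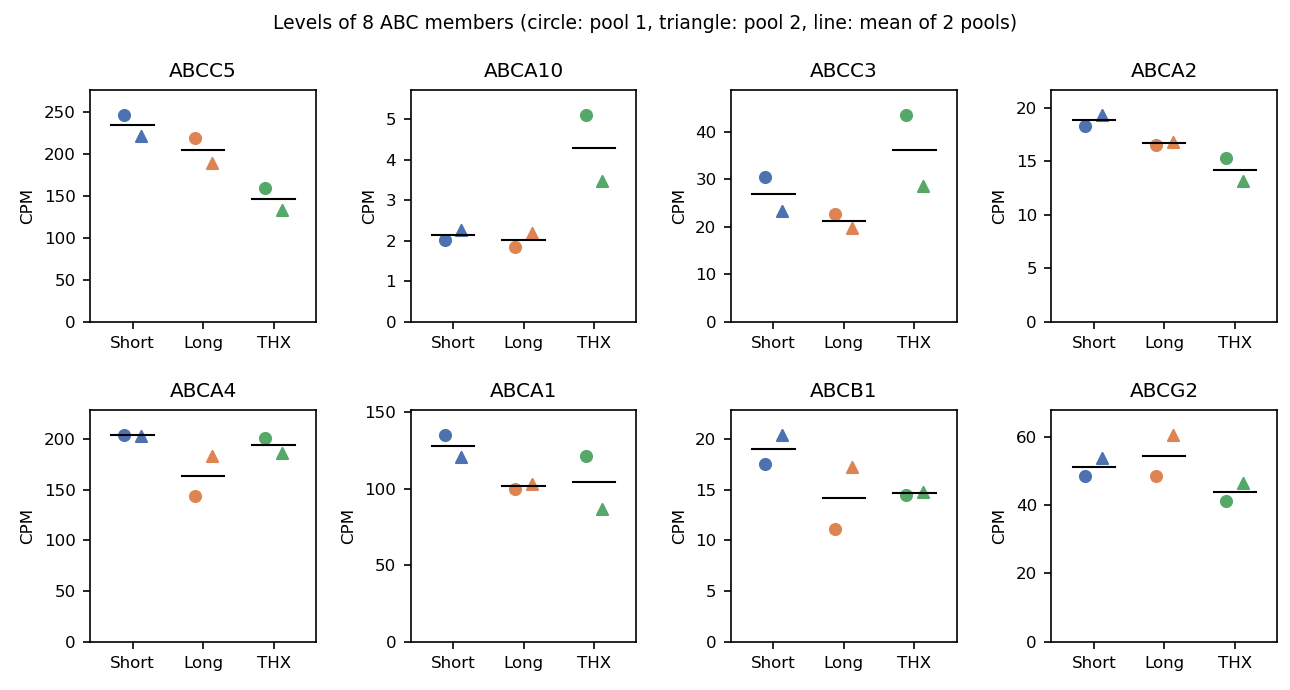
CPM of 8 members in each pool of the Short, Long and THX groups (circle: pool 1, triangle: pool 2, line: mean of 2 pools, each axis starting at 0). The 6 pools of ABCC5 descend from 247 to 133 CPM with no overlap between groups, while the THX pools of ABCA1, at 121 and 87.0 CPM, lie on either side of the Long pools.

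The A subfamily, whose members move phospholipids, sterols and retinoids, had 8 members. ABCA10, a little studied gene of a cluster of A subfamily genes, had counts of 291 and 231 in THX, 104 and 119 in Long and 170 and 114 in Short pools. On the CPM scale this was 5.12 and 3.48 in THX pools against 1.86 and 2.19 in Long and 2.01 and 2.27 in Short pools. Both THX pools lay above all others. The THX mean of 4.30 ± 1.16 CPM was 2.12-fold the Long mean of 2.02 ± 0.236 CPM (log2 difference 1.09, SE 0.252, 95% interval 0.49 to 1.68, edgeR adjusted p = 0.222, DESeq2 adjusted p = 0.0232). Against the Short mean of 2.14 ± 0.184 CPM the log2 difference was 1.01 (SE 0.250, 95% interval 0.41 to 1.60, edgeR adjusted p = 0.1, DESeq2 adjusted p = 0.014). Without THX pool 1 these differences were 0.78 and 0.71 (adjusted p = 0.381 and 0.13), and without THX pool 2 they were 1.34 and 1.27 (adjusted p = 0.128 and 0.119).

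The genes next to ABCA10 did not show this pattern. In the RefSeq table of the ARS-UI_Ramb_v3.0 assembly, ABCA5 neighbours it on one side, and on the other side ABCA6 follows after a noncoding gene that overlaps ABCA6. ABCA5, a lysosomal lipid transporter, stood at 17.9 and 18.9 CPM in THX, 18.9 and 20.6 CPM in Long and 24.0 and 21.9 CPM in Short pools. The groups were separate, THX pool 2 from Long pool 1 only beyond the digits printed. Its log2 difference was −0.10 in THX against Long and −0.32 in THX against Short pools (95% interval −0.56 to −0.078, adjusted p = 0.146). ABCA6 stood at 2.94 and 3.24 CPM in THX pools and between 3.34 and 4.86 CPM in the other 4 (log2 difference from Long −0.37, 95% interval −0.91 to 0.16, adjusted p = 0.739). Reads of such related genes can be hard to assign to 1 of them. Fibroblast markers were lower in THX pools. Their summed level was 441 and 582 CPM in the THX pools and 657 to 846 CPM in the other 4, and 0 of 6 tested markers were above 0 in THX against Long pools. None of the 7 was at 0 in all pools. In THX against Long and in THX against Short pools edgeR called 1 of the 6 lower and 0 higher (beside 0.283% and 0.916% of all tested genes in either direction). The median log2 difference of the markers was −0.55 in THX against Long and 0.020 in Long against Short pools. In the same comparisons ABCA5 was at −0.10 and −0.22, ABCA6 at −0.37 and −0.028, and ABCA10 at 1.09 and −0.079. The part of the fibroblast markers in the levels of ABCA5, ABCA6 and ABCA10 was not tested.

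ABCA4, which clears retinoid adducts from photoreceptor membranes and is best known from the retina, had 204 and 203 CPM in Short, 144 and 183 CPM in Long and 201 and 186 CPM in THX pools. The Long pools were the lowest 2 of the 6, with no overlap with either group. ABCA4 was the member with the lowest p in Long against Short pools (log2 difference −0.32, SE 0.117, 95% interval −0.59 to −0.041, edgeR adjusted p = 0.342). In THX against Long pools its log2 difference was 0.25 (95% interval −0.032 to 0.52, adjusted p = 0.615). Long pool 1 set much of both, and without it they were −0.16 and 0.083.

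ABCA1 passes cholesterol and phospholipid to apolipoproteins and is induced by the liver X receptors. It stood at 135 and 121 CPM in Short, 99.9 and 103 CPM in Long and 121 and 87.0 CPM in THX pools. Both Short pools lay above both Long pools (log2 difference of Long from Short −0.34, SE 0.152, 95% interval −0.69 to 0.024, adjusted p = 0.375), while the THX pools fell on either side of the Long pools (log2 difference 0.037, 95% interval −0.32 to 0.40; with total counts −0.0066). Without THX pool 1 the level was lower in THX than in Short pools and passed edgeR (log2 difference −0.55, adjusted p = 0.0416), whereas with all pools it did not (−0.30, adjusted p = 0.285).

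ABCA2, a sterol and sphingolipid transporter of lysosomes known from oligodendrocytes, stood at 18.3 and 19.4 CPM in Short, 16.5 and 16.8 CPM in Long and 15.3 and 13.1 CPM in THX pools. The 3 groups did not overlap. Its log2 difference in THX against Short pools was −0.41 (SE 0.114, 95% interval −0.68 to −0.14), which missed the edgeR threshold (adjusted p = 0.122) and passed by DESeq2 (adjusted p = 0.0388). Without THX pool 2 it was −0.29. Oligodendrocyte markers summed to 93.7 and 91.3 CPM in Short, 79.8 and 96.5 CPM in Long and 72.7 and 80.2 CPM in THX pools. Their sum was thus also lower in THX than in Short pools, but the Long pools overlapped both other groups. In THX against Short pools 1 of 6 markers was above 0, and none of the 6 was at 0 in all pools. Their part in the level of ABCA2 was not tested. ABCA3, the lipid transporter of lung surfactant, differed by no more than 0.085 on the log2 scale in any comparison.

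ABCA7, a phospholipid transporter known for its role in phagocytosis, is named because of the spread of its values, which was seen first. Short pool 1 had 65.7 CPM and Short pool 2 had 28.9 CPM, a ratio of 2.27 and the widest between 2 pools of a group among the 32 members. The remaining 4 pools ran from 25.7 to 39.2 CPM. Its log2 difference in Long against Short pools was −0.64 with a 95% interval of −1.46 to 0.18 (adjusted p = 0.426). Over the A subfamily, 8 of 8 members were below 0 in Long against Short pools (median log2 difference −0.20), beside 50.3% of all tested genes. The groups of 4 of the 8 did not overlap, a share no larger than the 53.5% of all genes. In THX against Long pools 5 of 8 were above 0, and in THX against Short pools 1 of 8.

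In the B subfamily the exporters of the plasma membrane were ABCB1 and ABCB11. ABCB1 is P-glycoprotein, the drug exporter of brain capillary endothelium. It had 17.5 and 20.5 CPM in Short, 11.1 and 17.3 CPM in Long and 14.5 and 14.8 CPM in THX pools. Short pools lay above both other groups, narrowly so over Long pool 2. The log2 difference of Long from Short was −0.42 (SE 0.204, 95% interval −0.90 to 0.066, adjusted p = 0.392; −0.13 without Long pool 1 and −0.76 without Long pool 2), and that of THX from Short −0.37 (95% interval −0.85 to 0.11, adjusted p = 0.314). Endothelial markers summed to 662 and 811 CPM in Short, 736 and 681 CPM in Long and 708 and 703 CPM in THX pools, with 3 of 8 above 0 in both comparisons with Short. None of the 8 was at 0 in all pools, and their part in the level of ABCB1 was not tested. ABCB11, the bile salt exporter of liver, was at the low end, with 1.06 and 1.20 CPM in Short, 1.14 and 0.699 CPM in Long and 0.792 and 0.663 CPM in THX pools, and its 95% interval in THX against Long pools ran from −1.14 to 0.46.

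The 5 B members of organelles included ABCB6, ABCB8 and ABCB10, known from porphyrin and haem handling and mitochondria, and ABCB9, a peptide transporter of lysosomes. All 5 were below 0 in THX against Long and in THX against Short pools, with log2 differences from −0.18 to −0.017 and from −0.17 to −0.013. Among all tested genes 49.7% and 51% were below 0. ABCB8, a mitochondrial transporter, had narrow groups: 107 and 104 CPM in Short, 107 and 105 CPM in Long, and 92.6 and 97.7 CPM in THX pools. Both THX pools were below the other 4, by a log2 difference of −0.15 from either group (SE 0.0709 for each). The 95% interval was −0.32 to 0.014 and the adjusted p 0.596 in THX against Long pools.

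**Figure D3:**
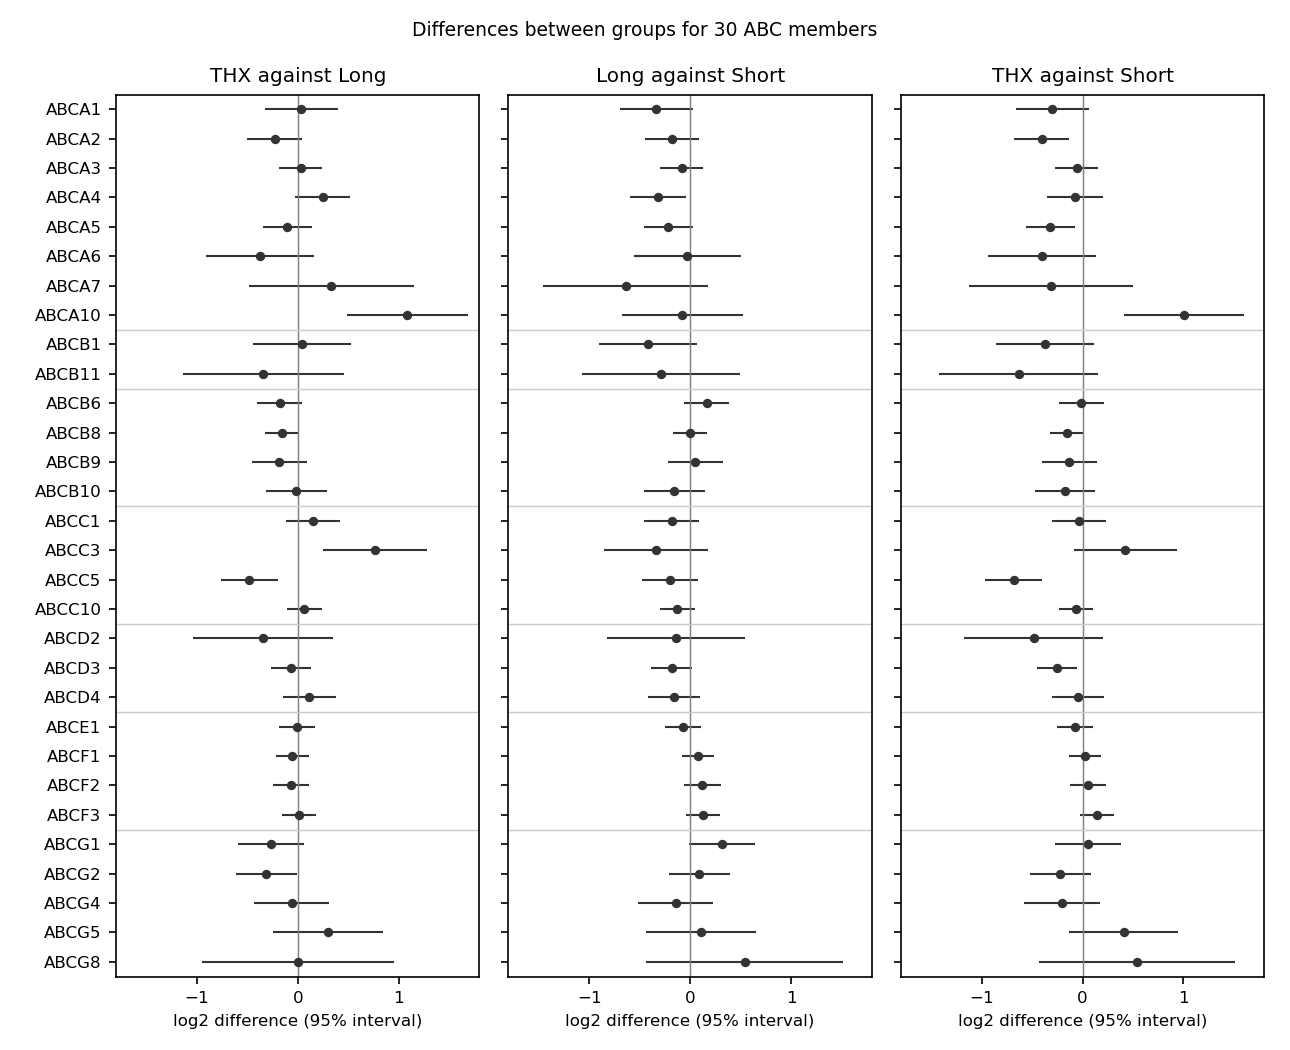
Log2 difference and 95% interval of 30 of the 32 members in THX against Long, Long against Short and THX against Short pools, fitted by edgeR to all 6 pools. The intervals of ABCA10, ABCC3, ABCC5 and ABCG2 leave out 0 in the first panel before adjustment over all genes, whereas those of the E and F members all span 0 in the 3 panels.

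The D subfamily imports fatty acids into peroxisomes, apart from ABCD4, which moves cobalamin out of lysosomes. ABCD3, an abundant protein of the peroxisomal membrane, had 71.0 and 64.4 CPM in Short, 57.2 and 62.0 CPM in Long and 56.7 and 56.8 CPM in THX pools. Short pools were above the rest, and THX pools were just below Long pool 1. The log2 difference was −0.25 in THX against Short pools (SE 0.0843, 95% interval −0.45 to −0.054, adjusted p = 0.155) and −0.18 in Long against Short pools (adjusted p = 0.376). ABCD2, a transporter of long fatty acids, stood between 0.827 and 1.49 CPM and had a 95% interval of −1.04 to 0.35 in THX against Long pools. ABCD4 had log2 differences of 0.12, −0.16 and −0.044 in THX against Long, Long against Short and THX against Short pools, and its partner LMBRD1 had 0.010, 0.031 and 0.041.

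The E and F members differed little in size between groups, though their narrow groups were often separate. Groups did not overlap in 2 of 4 members in THX against Long pools (beside 37.2% of all tested genes). They did not overlap in 4 of 4 in Long against Short pools (beside 53.5%) and in 3 of 4 in THX against Short pools (beside 52.5%). ABCE1, which splits ribosomes after translation ends, had 65.7 and 62.9 CPM in Short, 60.1 and 62.5 CPM in Long and 62.6 and 59.4 CPM in THX pools. Its log2 difference of THX from Long pools was −0.0065 with a 95% interval of −0.19 to 0.17. ABCF1, which promotes translation initiation, had 99.8 and 102 CPM, 105 and 107 CPM, and 102 and 102 CPM in the same order of groups. ABCF3 had 107 and 101 CPM in Short, 115 and 114 CPM in Long and 115 and 115 CPM in THX pools, with log2 differences of 0.13 in Long and 0.14 in THX from Short pools (adjusted p = 0.429 and 0.276). All 4 members, ABCF2 included, differed by less than 0.15 on the log2 scale in each of the 3 comparisons, a limit chosen after their values were seen, although with total counts ABCE1 was at −0.17 in THX against Short pools, and without Short pool 1 ABCF3 was at 0.17 in Long and 0.18 in THX from Short pools. The same held for 7 of 32 members (21.9%), for 23.1% of all tested genes and for 31.2% of those with a mean of at least 5 CPM. The list of ribosome recycling and rescue factors had 0 of 12 members past the test in each direction and each comparison. Of all tested genes 0.283% (THX against Long), 0% (Long against Short) and 0.916% (THX against Short) passed. The log2 differences of the 12 factors ran from −0.13 to 0.074 in THX against Long pools. Their range was wider in the other comparisons, from −0.28 to 0.18 (Long against Short) and from −0.28 to 0.25 (THX against Short).

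The G subfamily, whose proteins work in pairs, had 5 members. ABCG2, the exporter of urate, porphyrins and many drugs, stood at 48.5 and 53.7 CPM in Short, 48.3 and 60.6 CPM in Long and 41.2 and 46.5 CPM in THX pools. Both THX pools were the lowest 2 of the 6. The log2 difference of THX from Long was −0.31 (SE 0.127, 95% interval −0.61 to −0.011, adjusted p = 0.531; −0.14 without Long pool 2 and −0.47 without Long pool 1), and that of THX from Short was −0.22 (adjusted p = 0.336). ABCG1, which exports cholesterol to lipoproteins, had 56.8 and 71.2 CPM in Short, 71.3 and 87.9 CPM in Long and 65.2 and 67.4 CPM in THX pools. The Long pools lay highest, Long pool 1 narrowly above Short pool 2, with log2 differences of 0.31 from Short (95% interval −0.011 to 0.64, adjusted p = 0.369) and −0.26 of THX from Long (95% interval −0.59 to 0.062, adjusted p = 0.662). ABCA1 and ABCG1, both known targets of the liver X receptors, thus had log2 differences of opposite sign in Long against Short pools, −0.34 and 0.31. Neither passed edgeR, and both 95% intervals included 0 (−0.69 to 0.024 for ABCA1). The part of the liver X receptors in these levels was not tested. The value of ABCG1 rested on single pools, at 0.16 without Short pool 1 or without Long pool 2 and 0.49 without Short pool 2, and its difference of THX from Long was −0.11 without Long pool 2.

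ABCG5 and ABCG8 form the sterol exporter of liver and gut, and the RefSeq table shows their genes overlapping each other. ABCG8 had 0.355 and 0.637 CPM in Short, 0.589 and 0.828 CPM in Long and 0.616 and 0.798 CPM in THX pools, and its 95% interval of −0.95 to 0.95 in THX against Long pools allows a change of either sign. ABCG5 stood between 3.02 and 5.32 CPM, with the highest level in THX pool 2. ABCG4, a sterol exporter of neurons and glia, differed by no more than 0.20 on the log2 scale in any comparison. In all, 12 of 32 members overlap another gene in that table. Besides ABCG5 and ABCG8, an overlap with a protein-coding gene was listed for ABCF3 (AP2M1), ABCC10 (DLK2), ABCB6 (ZFAND2B) and ABCG4 (a gene without a name). Because the strand setting of the counting was not stated, reads of overlapping genes may not have been told apart.

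Across the 32 members, levels were more often below than above 0 in each comparison. In THX against Long pools 19 were below 0 (59.4%, beside 49.7% of all tested genes), with a median log2 difference of −0.057 (all genes 0.0011). In Long against Short pools 21 were below 0 (65.6%, beside 50.3%), with a median of −0.11 (all genes −0.0025). In THX against Short pools 24 were below 0 (75%, beside 51%) and 8 above (25%, beside 49%), with a median of −0.11 (all genes −0.0081). Groups did not overlap in 20, 20 and 19 of 32 members, beside 37.2%, 53.5% and 52.5% of all tested genes. The THX pools lay beyond all 4 pools of ewes with a thyroid in 9 members (beside 22.2% of all genes), 8 of them lower (25%, beside 11.3% of all genes) and 1 higher (beside 11%). The lower ones included ABCA2, ABCA5, ABCA6, ABCB8, ABCC5, ABCD3 and ABCG2, and the higher one was ABCA10. These counts are a description of a family chosen with earlier results known and carry no test.

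**Figure D4:**
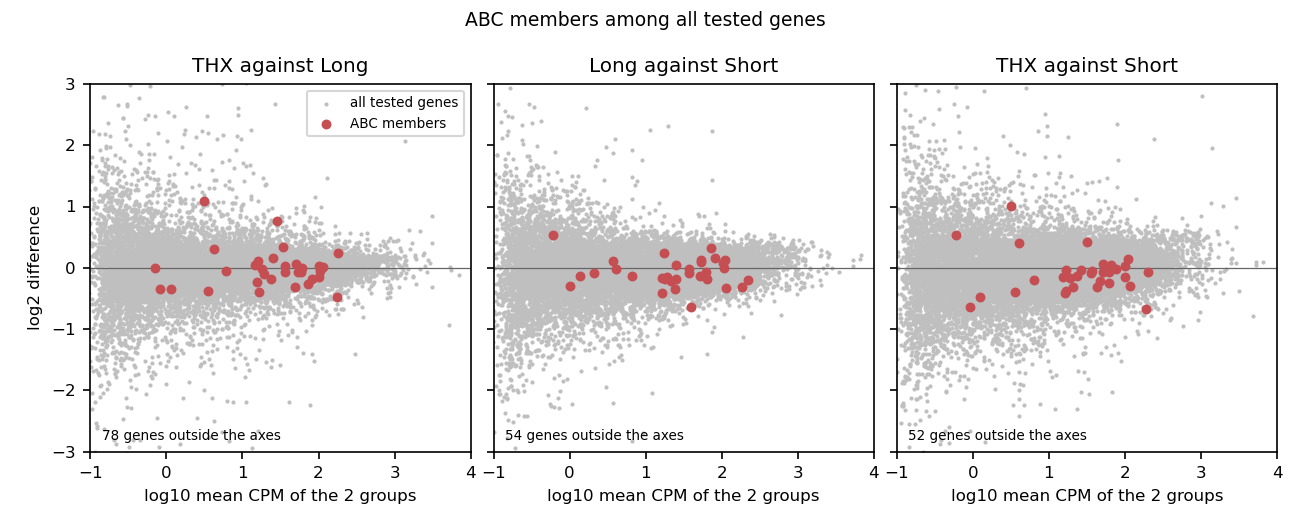
Log2 difference against log10 mean CPM of the 2 groups compared, for all 18019 tested genes (grey) and the 32 ABC members (red), in the 3 comparisons. The members lie within the cloud of all genes, from −0.48 to 1.09 (THX against Long), from −0.64 to 0.54 (Long against Short) and from −0.68 to 1.01 (THX against Short).

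Summed over the 32 members, the level was 1639 ± 63.9 CPM in Short, 1535 ± 54.5 CPM in Long and 1476 ± 47.5 CPM in THX pools (SD, n = 2 each). The C members summed to 341 ± 23.5, 298 ± 23.6 and 260 ± 33.3 CPM in the same order, and much of that sum is ABCC5. The D members summed to 102 ± 1.22, 95.2 ± 4.32 and 88.9 ± 4.24 CPM. The only E member, ABCE1, had means of 64.3 ± 2.02, 61.3 ± 1.74 and 61.0 ± 2.29 CPM, nearly equal in Long and THX pools (log2 difference −0.0065). The A, B, F and G sums did not fall in the order Short, Long, THX. The A members summed to 465 ± 37.7, 374 ± 41.3 and 413 ± 33.1 CPM. The B members summed to 285 ± 8.38, 287 ± 9.39 and 262 ± 10.3 CPM, and the G members to 126 ± 15.2, 145 ± 21.0 and 122 ± 5.63 CPM. The F members were at 256 ± 6.21 CPM in Short, 275 ± 0.337 CPM in Long and 270 ± 0.979 CPM in THX pools. The B, D, F and G sums were higher in Long than in THX pools without overlap. The sum of all members and the A, C and E sums overlapped between Long and THX pools. The summed epithelial markers went the other way than the sum of all members. They were at 90378 and 96422 CPM in Short, 111108 and 112796 CPM in Long and 122092 and 144048 CPM in THX pools. Such a sum follows its most abundant genes, and the list as a whole did not rise. In THX against Short pools 4 of 9 were above 0, with a median log2 difference of −0.034, and edgeR called 1 lower and 0 higher. In THX against Long pools the median was 0.0079. The part of the epithelial markers in the sums of the members was not tested.

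Family members known by other names, regulators and partners gave no calls by edgeR. Few genes did at all: 0.283% of all tested genes in THX against Long, 0% in Long against Short and 0.916% in THX against Short pools. TAP1 and TAP2, the peptide transporters of antigen presentation, had log2 differences of −0.26 and −0.18 in THX against Long pools (edgeR adjusted p = 0.749 and 0.531). In Long against Short pools they were at 0.18 and 0.34 (edgeR adjusted p = 0.622 and 0.342). DESeq2 called TAP2 in Long against Short pools, beside 0.882% of all tested genes. Of 15 transcription factors known to control ABC genes, 14 were tested and 0 passed in either direction in each comparison. Their lowest adjusted p in THX against Long pools was that of RXRA, the partner of the liver X and thyroid hormone receptors, at 83.8 and 77.0 CPM in Long and 102 and 103 CPM in THX pools (log2 difference 0.35, edgeR adjusted p = 0.201), a gene that DESeq2 called in both comparisons of THX. The liver X receptors NR1H3 and NR1H2 had log2 differences of 0.28 and 0.25 when Long was compared with Short pools, and of −0.018 and −0.015 when THX was compared with Long pools (adjusted p of at least 0.342). In THX against Short pools DESeq2 called 3 of the 14 factors, RXRA, ARNT and PPARA, beside 9.77% of all tested genes. It also called 2 of 9 protein partners there, SLC9A3R1 and MSN. In THX against Long pools RXRA was the 1 factor of 14 that it called, beside 2.49% of all genes. By edgeR 0 of 9 partners passed in each comparison, and among genes of glutathione synthesis and conjugation, which make cargo for C members, 0 of 13 passed. Of these 13, 11 were above 0 in Long against Short pools (beside 49.7% of all tested genes). In THX against Short pools 11 were above 0 (beside 49%), and in THX against Long pools 6 were (beside 50.3%). DESeq2 called 1 of the 13 in THX against Short pools, GSTM3, beside 9.77% of all tested genes. GSTM3 had 169 and 171 CPM in Short, 213 CPM in both Long and 192 and 238 CPM in THX pools. Its log2 difference was 0.34 in THX against Short (edgeR adjusted p = 0.14, DESeq2 adjusted p = 0.0348) and 0.33 in Long against Short pools (adjusted p = 0.342 and 0.125).

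ABCC9, the sulfonylurea receptor of vascular channels, is listed without a symbol and was named from the RefSeq table by its identifier, so it is not among the 32. It had 24.5 and 18.1 CPM in Short, 18.1 and 18.2 CPM in Long and 18.8 and 13.6 CPM in THX pools, with log2 differences of −0.17 in THX against Long and −0.40 in THX against Short pools (adjusted p = 0.916 and 0.265). Its channel partner KCNJ8 had −0.15 and −0.029. Mural cell markers, KCNJ8 among them, summed to 1403 and 1601 CPM in Short, 1367 and 1320 CPM in Long and 1178 and 1324 CPM in THX pools, with 1 of 8 above 0 in THX against Short pools and none at 0 in all pools. Their part in the level of ABCC9 was not tested.

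The 8 rows below the floor were ABCA12, ABCB4, ABCB5, ABCC2, ABCC6, ABCC8, ABCC11 and ABCC12. Of these, ABCA12, ABCB5 and ABCC11 had at most 5 counts in any pool and were not tested. ABCC8, the sulfonylurea receptor of insulin-secreting cells, had 21 and 53 counts in Short, 25 and 32 in Long and 17 and 5 in THX pools (log2 difference of THX from Long −1.49, SE 0.852, adjusted p = 0.715). ABCC12 had 4 and 5 counts in Short, 10 and 11 in Long and 16 and 32 in THX pools, with no overlap between any 2 groups (log2 difference of THX from Short 2.44, SE 0.594, adjusted p = 0.098). ABCC2, the apical organic anion exporter of liver and kidney, had 2 counts in THX pool 1 and 28 in THX pool 2. On the CPM scale these were 0.0352, the lowest of the 6 pools, and 0.422, below only Short pool 2 at 0.458.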

How the data were processed

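PolyA RNA of 6 choroid plexus pools was sequenced after stranded library preparation, per the labels' protocols. The authors deposited raw counts per gene. Reads had been converted with bcl2fastq (2.20) and checked with FastQC (0.11.8) and MultiQC (1.9), and TopHat2 (2.1.1), featureCounts (2.0.0) and SAMtools (1.9) are the other tools named, per the submitters' processing notes. No genome build, annotation or strand setting is given in the sources used here. All 32 members matched the RefSeq table by identifier, and it was used for names and neighbours only. No sequences were used.

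In R 4.3.3, edgeR 4.0.16 filtered low counts (filterByExpr), scaled by TMM and fitted 1 mean per group to all 6 pools by quasi-likelihood (3 residual and 3.96 prior degrees of freedom). Tests were two-sided, with Benjamini-Hochberg adjustment over 18019 genes and a threshold of 0.05. SE is the log2 difference over the root of F, and 95% intervals use the total degrees of freedom. DESeq2 1.42.0 and limma-voom 3.58.1 were alternatives, besides other scalings, filters, a pool number term and leaving out each pool. Scripts were tested on simulated data. Figures used Python 3.11.15 and matplotlib 3.10.9.

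Full values were given for the 6 members with the lowest p in each comparison, the 5 with the highest and 3 with the lowest mean CPM, and a fixed list of ABCA1, ABCB1, ABCC1, ABCC4, ABCC9, ABCE1, ABCG1 and ABCG2, as far as they were members. ABCC4 is not analysed here, and the values of 2 members are not reported here, though counts, medians and sums include them. The members and lists were chosen with earlier results of these data known. The labels do not say how ewes were assigned to pools.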

Additional observations from a re-analysis of the deposited data

How the results depend on the processing

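With 2 pools per group, a difference of the size of most members cannot be told from the spread. The signs of ABCC5, ABCA10 and ABCC3 in both comparisons of THX held under every alternative run, while their adjusted p ranged from 0.0144 to 0.976, 0.0232 to 0.89 and 0.0247 to 0.956 in THX against Long pools. In THX against Short pools ABCC5 passed in 6 of 14 alternatives (adjusted p from 1.89e-05 to 0.257) and ABCA10 in 2 of 13 (0.014 to 0.386).

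The number of members called in THX against Long pools was 3 by DESeq2 and 0 under the other alternatives. In THX against Short pools it was 3 by DESeq2, 2 with no filter, 2 at a threshold of 0.1, 1 with a floor of 5 CPM for all genes, 1 with total counts and 0 to 2 when 1 pool was left out (2 without THX pool 1, ABCC5 and ABCA1). All genes called in THX against Long pools numbered 51, and 204 with no filter, 448 by DESeq2, 22 with only the 4 pools compared, 92 at a threshold of 0.1 and 2 to 37 without 1 pool (24 when either Short pool was left out, 9 and 2 for the first and second Long pool, 13 for THX pool 1). In Long against Short pools 0 became 159 by DESeq2 and 0 to 4 without 1 pool (1 without Short pool 2, 4 without Long pool 1). In THX against Short pools 165 (57 higher, 108 lower) became 259 with total counts (49 higher, 210 lower), 908 with no filter, 1761 by DESeq2, 11 with only the 4 pools, 922 at a threshold of 0.1 and 10 to 1087 without 1 pool (10 and 36 for the first and second Short pool, 16 for either Long pool, 1087 and 80 for the first and second THX pool). The cause was not tested.

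The replicate block, a term for the pool number, gave 392 calls in THX against Short pools and 1 member, ABCC5 (adjusted p = 0.0191). It gave 48 and 0 calls in the other comparisons. The labels do not say whether same-numbered pools share more than a number. The deviations of same-numbered pools correlated across genes at −0.059 (Short and Long), 0.21 (Short and THX) and 0.067 (Long and THX).

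The median log2 difference of members moved with total counts to −0.10 (THX against Long), −0.16 (Long against Short) and −0.21 (THX against Short). With a floor of 5 CPM for all genes it was −0.14 in Long against Short and −0.12 in THX against Short pools, and with no floor for members −0.13 in THX against Short pools. Leaving out 1 pool gave −0.080 to −0.014, −0.10 to −0.068 and −0.11 to −0.087. Total counts also shifted the median of all tested genes, by −0.049, −0.050 and −0.099.

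Some values changed sign, most of them near 0, but also those of ABCB11 (−0.34 in THX against Long and −0.29 in Long against Short pools with all pools). With total counts the difference was −0.0066 for ABCA1, −0.0044 for ABCB1, −0.037 for ABCF3 and −0.051 for ABCG8 in THX against Long pools, −0.050 for ABCB8 in Long against Short pools, and −0.076 for ABCF1 and −0.049 for ABCG1 in THX against Short pools. ABCG8 was at −0.00026 with only the 4 pools compared, and ABCB8 in Long against Short pools at −0.0016 with no filter, −0.0035 with a floor of 5 CPM and −8.2e-05 by limma-voom. Without 1 pool the range in THX against Long pools was −0.22 to 0.26 for ABCA1, −0.24 to 0.40 for ABCB1, −0.65 to 0.055 for ABCB11, −0.046 to 0.034 for ABCE1 and −0.22 to 0.27 for ABCG8. In Long against Short pools it was −0.20 to 0.035 for ABCA10, −0.020 to 0.020 for ABCB8, −0.69 to 0.024 for ABCB11 and −0.075 to 0.25 for ABCG2. In THX against Short pools it was −0.10 to 0.22 for ABCG1 and −0.14 to 0.080 for ABCC1. All alternatives planned were run. ABCA6, ABCA10, ABCB11, ABCD2, ABCG5 and ABCG8 fall below a floor of 5 CPM and have no value there.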
